A study of Homo sapiens with 6 samples.

Results

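Zinc transporters and metallothioneins were followed in HEK293T, an established line of human embryonic kidney origin with the SV40 large T antigen, after siRNA against LOC550643. The members are the protein-coding rows of the gene table whose symbol begins with SLC30A or SLC39A, together with MTF1, MT2A, MT3, MT4 and the MT1 genes named by 1 letter. This gave 36 of the 26391 rows: 10 SLC30A genes, 14 SLC39A genes, 11 metallothioneins and MTF1. Cells at 50% confluency received either a pool of 4 siRNAs against LOC550643 or a non-silencing control siRNA, with Dharmafect I, and RNA was collected 48 hours later. Each group held 3 libraries, and no other agent or genotype differed between them. With only 1 pool and 1 control siRNA, silencing of the gene and other effects of these siRNAs cannot be told apart. Per the series' design text the product of LOC550643 binds EDC4, a protein of the mRNA decapping machinery, and the study asked if RNA levels change once the gene is silenced.

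Zinc moves across membranes through a pair of protein families that work in opposite directions. SLC30A proteins (ZnT) carry zinc out of the cytosol, either out of the cell or into organelles, and SLC39A proteins (ZIP) carry it into the cytosol from outside or from organelles. Metallothioneins are small proteins that hold zinc and copper through clusters of cysteines. MTF1 is the transcription factor that senses cytosolic zinc. When zinc rises MTF1 binds metal response elements upstream of metallothionein genes and of SLC30A1 and raises their transcription.

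Metallothioneins are shown here by sequence because the family is short and alike, which bears on how reads are assigned. The coding sequences of MT2A and MT1X, taken from the GENCODE release 44 transcripts mapped to GRCh37, are each 186 bases long and are printed 5′ to 3′ with the in-frame cysteine codons in capitals.
MT2A: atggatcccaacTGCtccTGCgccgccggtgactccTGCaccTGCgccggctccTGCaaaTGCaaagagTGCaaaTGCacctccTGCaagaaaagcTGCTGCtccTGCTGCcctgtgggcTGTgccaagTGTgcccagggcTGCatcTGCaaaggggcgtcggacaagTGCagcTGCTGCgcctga
MT1X: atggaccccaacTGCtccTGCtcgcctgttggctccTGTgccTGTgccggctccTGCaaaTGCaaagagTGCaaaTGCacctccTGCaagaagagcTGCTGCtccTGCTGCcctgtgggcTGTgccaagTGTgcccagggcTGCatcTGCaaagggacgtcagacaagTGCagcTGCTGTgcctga
In each, 20 of the 61 residues are cysteine (32.8%), and the coding sequences differ at 14 of 186 bases (92.5% identical). Of all distinct windows of 75 bases, the read length, in the MT2A transcripts, 0 of 1061 occurred in transcripts of another gene. The same was true of 0 of 1959 windows for MT1F, whereas 275 of 1871 windows of MT1X (14.7%) recurred elsewhere, including in MT1G and the pseudogene MT1XP1. MT1X is therefore the detected metallothionein whose reads could be shared with copies. The genes lie side by side on chromosome 16, from MT4 at 56598961 to 56602869 to MT1X at 56716382 to 56718108 (hg19).

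The upstream sequences of metallothioneins and SLC30A1 are shown because MTF1 acts on them. Each run is the 250 bases before a RefSeq gene start (GRCh38.p14, a different build from the hg19 of the gene table), read 5′ to 3′ on the gene strand. Capitals mark the core letters of the metal response element, TGCACNC or TGCGCNC, on either strand.
MT2A, chr16:56608334-56608583, plus strand: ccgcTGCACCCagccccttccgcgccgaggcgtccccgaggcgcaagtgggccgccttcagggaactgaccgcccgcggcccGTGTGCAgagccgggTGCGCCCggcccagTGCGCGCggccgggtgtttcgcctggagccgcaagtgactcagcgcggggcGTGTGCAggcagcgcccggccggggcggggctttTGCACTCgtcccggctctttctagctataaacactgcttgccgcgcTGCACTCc
MT1X, chr16:56682220-56682469, plus strand: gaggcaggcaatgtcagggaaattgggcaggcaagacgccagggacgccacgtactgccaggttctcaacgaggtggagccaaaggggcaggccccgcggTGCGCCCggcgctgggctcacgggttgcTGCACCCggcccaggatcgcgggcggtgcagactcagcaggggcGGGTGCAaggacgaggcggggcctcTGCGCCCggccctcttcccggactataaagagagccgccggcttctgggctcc
MT1H, chr16:56669564-56669813, plus strand: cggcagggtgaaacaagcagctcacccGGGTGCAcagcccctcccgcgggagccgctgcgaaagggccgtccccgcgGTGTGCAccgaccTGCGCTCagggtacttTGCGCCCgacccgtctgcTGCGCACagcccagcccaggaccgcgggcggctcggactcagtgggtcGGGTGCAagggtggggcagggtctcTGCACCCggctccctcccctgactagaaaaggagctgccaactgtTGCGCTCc
SLC30A1, chr1:211579162-211579411, minus strand: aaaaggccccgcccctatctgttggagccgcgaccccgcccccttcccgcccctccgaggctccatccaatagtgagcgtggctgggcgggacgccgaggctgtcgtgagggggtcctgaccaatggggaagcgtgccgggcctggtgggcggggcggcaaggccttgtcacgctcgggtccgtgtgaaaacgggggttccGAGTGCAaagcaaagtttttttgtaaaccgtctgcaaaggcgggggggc
MT2A held 7 such matches, MT1X 4, MT1H 8 and SLC30A1 1, the last at bases -49 to -43 on the opposite strand. None of the matches in these 4 windows overlapped another. MT1B and MT4 held 3 each. Among all 35116 RefSeq windows of this length, 24.8% held at least 1 match and 1.58% held at least 3, the level that all 5 metallothionein windows reached. Windows were found for 27 of the 36 members, which have 36 windows between them. MT1A, MT1E, MT1F, MT1G, MT1M, MT3, SLC30A8, SLC39A14 and SLC39A4 had no entry. The SLC39A genes held a match in 5 of 19 windows (26.3%), close to the share of all windows, and the SLC30A genes in 6 of 11 (54.5%). No match was found upstream of MTF1. A match of letters is a description of the sequence and no evidence that MTF1 binds there in these cells.

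**Figure D1:**
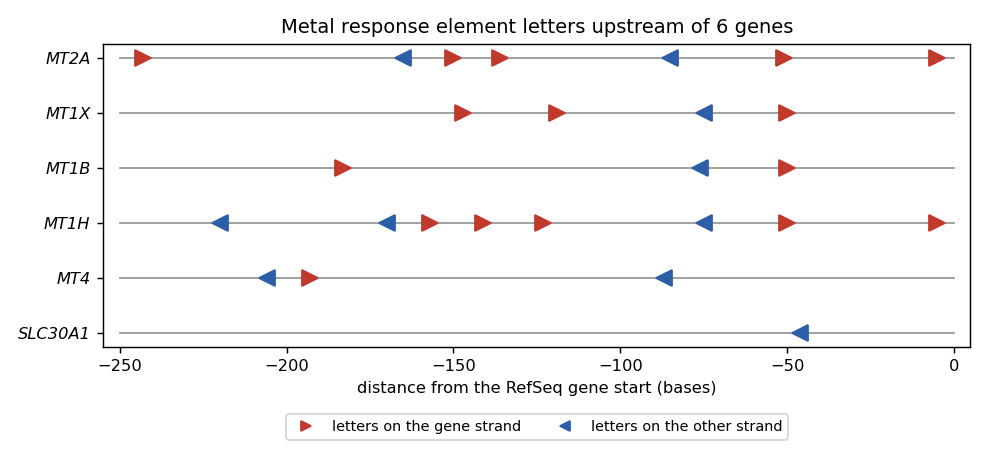
Positions of the metal response element letters in the 250 bases before the RefSeq start of 6 genes; the x axis is the distance from the start in bases, and arrowheads point right for letters on the gene strand and left for the other strand. MT1H has 8 matches and MT2A 7, while SLC30A1 has 1.

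Across the libraries, the pool lowered its target as labelled. LINC01420, the row of LOC550643, stood at 56.2, 50.7 and 51.8 CPM in control replicates 1 to 3 and at 5.85, 5.96 and 5.41 CPM in LOC550643 siRNA replicates 1 to 3. CPM here are the deposited values brought to a common library total after TMM scaling, a correction for library composition. Depth inferred from the values ran from 8604236 read pairs in LOC550643 siRNA replicate 3 to 36082404 in control replicate 3. The gene-wise log2 differences between replicates had SDs of 0.219 to 0.379, with the highest values in the comparisons with LOC550643 siRNA replicate 3. Among the controls, replicate 2 differed more from replicates 1 and 3 (0.285 and 0.335) than these did from each other (0.219). All 6 genes listed for this line (KRT8, KRT18, VIM, PAX2, LIN28B and NEFM) were above 1 CPM in every library, at a summed level of 1066 to 1166 CPM in control and 1182 to 1299 CPM in LOC550643 siRNA libraries. KRT18 and NEFM were higher with the pool (log2 0.51 and 0.42, limma adjusted p = 0.00073 and 0.0043), and the others did not pass. Of 6 blood markers, HBB was at 0 throughout and the sum lay between 1.49 and 3.37 CPM, and of 6 keratinocyte or gut markers KRT20 was at 0 and the sum lay between 7.02 and 8.99 CPM. Of 6 mature tubule markers UMOD was at 0 and LRP2 alone passed 1 CPM in every library. The tubule sum, nearly all LRP2, was 23.6 to 31.4 CPM in control and 14.5 to 16.2 CPM in LOC550643 siRNA libraries. The 8 fibroblast markers summed to 226.9 to 244.7 CPM in control and 248.2 to 270.2 CPM in LOC550643 siRNA libraries, with COL1A2 at or near 0. FBLN1 was the fibroblast marker that rose (157.6 to 184.5 CPM), while PDGFRA and COL3A1 fell (log2 -1.13 and -0.53, limma adjusted p = 0.00215 and 0.00273). The part of these genes in the results below was not tested. In a bulk sample, fewer cells carrying an mRNA and less of it per cell cannot be told apart.

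Zinc transporters changed modestly and in both directions, with SLC39A7 the largest rise and SLC30A6 the largest fall among the members that passed the test. Of the 36 members, 25 had enough reads to be tested. After LOC550643 siRNA 5 were higher and 4 lower (limma adjusted p under 0.05), and 16 did not pass. Over all 16245 genes tested, 17.5% were higher, 18.2% lower and 35.7% changed in either direction, so the 36% of members called is near the background. The CPM of the groups did not overlap at 13 of the 25 members, and at 48.5% of all genes tested. The split by family was 1 higher and 4 lower of 9 SLC30A genes tested, and 4 higher and 0 lower of 12 SLC39A genes. Median log2 fold changes were -0.24 for SLC30A and 0.08 for SLC39A genes, beside -0.02 over all genes tested, and the difference between the families was not tested. Scaled by library totals without TMM, the members called were 2 higher and 6 lower, and the share of higher genes among all those called fell from 49.0% to 34.4%. The members higher were 3 without control replicate 1 and 1 without LOC550643 siRNA replicate 2, and without LOC550643 siRNA replicate 1 or 3 the members lower were 1 and 2. Each of the 9 called members kept its direction in all 18 alternative settings. Among these, the other filters, the replicate block and the adjusted p of 0.01 leave the estimate unchanged and could not turn a direction. The groups of the 9 called members do not overlap, so another pseudocount or leaving out 1 library could hardly turn one either.

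**Figure D2:**
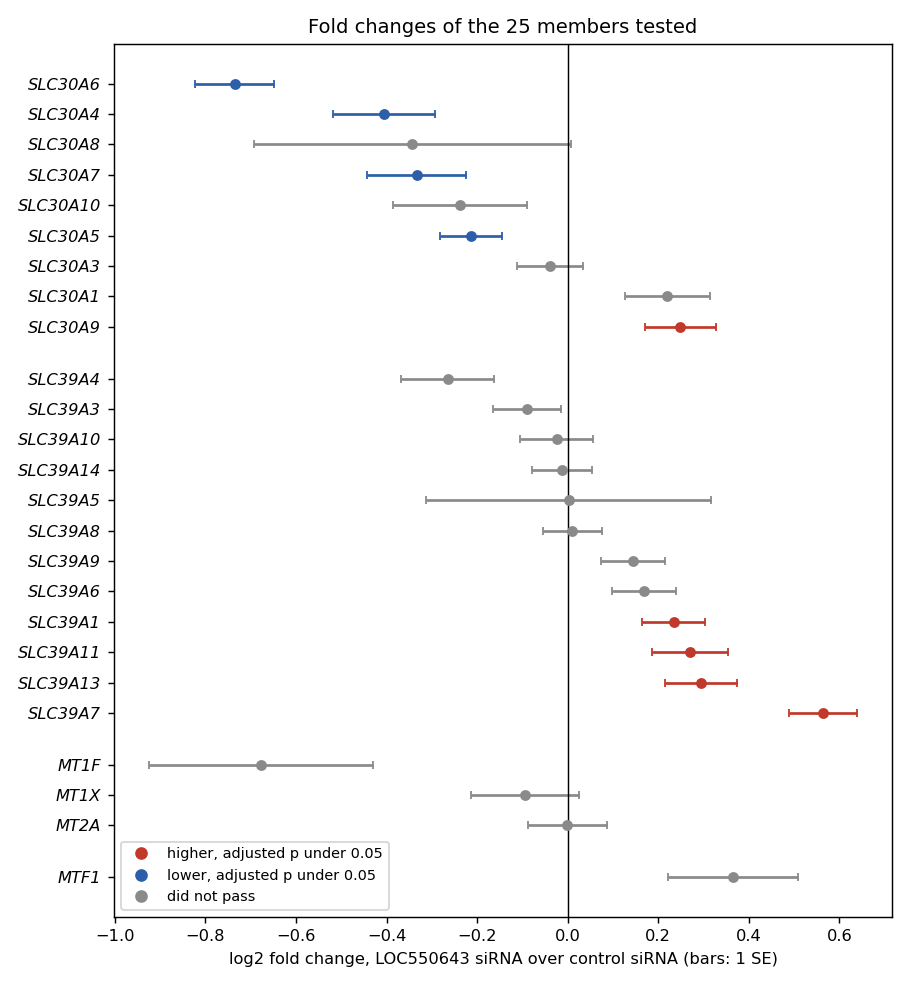
Log2 fold change (x axis, LOC550643 siRNA over control siRNA) of the 25 members tested, in 4 blocks from top to bottom: SLC30A, SLC39A, metallothioneins and MTF1; points are limma estimates and bars 1 SE, with n = 3 libraries per group. SLC30A6 (-0.74) and SLC39A7 (0.56) lie farthest from 0 among the coloured points, which passed an adjusted p of 0.05.

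SLC30A5, SLC30A6 and SLC30A7, which load the early secretory pathway with zinc, were lower by the test, and only SLC30A6 kept its call in every setting. SLC30A5 (ZnT5) and SLC30A6 (ZnT6) form a heterodimer that moves zinc into the Golgi, and SLC30A7 (ZnT7) acts there as a homodimer. SLC30A6 (chromosome 2, 32390910 to 32449181, plus strand, hg19) stood at 41.0, 42.2 and 46.8 CPM in control replicates 1 to 3. In LOC550643 siRNA replicates 1 to 3 it stood at 28.6, 25.2 and 24.4 CPM. Every control library was thus above every LOC550643 siRNA library, with means of 43.3 ± 3.01 and 26.1 ± 2.22 CPM (SD, n = 3 each). On the log2 scale the change was -0.74 (SE 0.087, limma adjusted p = 0.000108), and no alternative setting gave an adjusted p above 0.00118. For this gene -0.73 and an adjusted p of 9.4e-10 stand in the authors' deposited table.

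Its partner SLC30A5 (chromosome 5, 68389776 to 68426899) was lower as well. Control libraries held 142.3, 138.8 and 147.2 CPM and LOC550643 siRNA libraries 115.8, 130.3 and 123.6 CPM, without overlap. This is a log2 fold change of -0.21 (SE 0.069, limma adjusted p = 0.0324). The call was lost when control replicate 1 or 3 was left out (0.0814 and 0.102), and likewise for LOC550643 siRNA replicate 1 or 3 (0.114 and 0.0727), within a range of 0.00587 to 0.114 over all settings. The authors' deposited table gives SLC30A5 an adjusted p of 0.077. In GENCODE, 9.78% of the exon bases of SLC30A5 overlap a long noncoding RNA on the opposite strand, and the counting had no strand option. Per kb of transcript, the ratio of SLC30A5 to SLC30A6 was 4.24, 4.02 and 3.85 in the control libraries and 4.96, 6.33 and 6.21 in the LOC550643 siRNA libraries. The ratio was higher in all 3 libraries of the pool (mean 5.83 ± 0.756 against 4.04 ± 0.196, SD, n = 3 each), and this difference was not tested.

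SLC30A7 (chromosome 1, 101361634 to 101447311) stood at 66.4, 92.1 and 70.5 CPM in control libraries and at 60.2, 57.0 and 62.8 CPM in LOC550643 siRNA libraries. Control replicate 2 was the highest of the 6, and the groups did not overlap. SLC30A7 was thus at -0.33 on the log2 scale (SE 0.109, limma adjusted p = 0.0339). Without control replicate 2 it was -0.20 and the call was lost (adjusted p = 0.066). The call was also lost without LOC550643 siRNA replicate 1, 2 or 3 (0.0763, 0.116 and 0.0582), within a range of 0.00992 to 0.116.

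SLC30A4 (ZnT4), which fills endosomal and secretory vesicles, fell as well. It stood at 18.6, 21.4 and 18.0 CPM in control libraries and at 13.1, 13.9 and 16.8 CPM with the pool, again without overlap (chromosome 15, 45774680 to 45815002). SLC30A4 was at -0.41 on the log2 scale (SE 0.113, limma adjusted p = 0.0159). Leaving out LOC550643 siRNA replicate 1 or 2 gave adjusted p values of 0.0612 and 0.0607, within a range of 0.00299 to 0.0612. Its row overlaps the pseudogene HMGN2P46 on the opposite strand. With no strand option in the counting command, their reads cannot be told apart there.

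SLC30A9 (chromosome 4, 41992523 to 42089551), a zinc exporter of mitochondria, was the SLC30A gene that rose. Its control libraries held 102.2, 91.7 and 111.3 CPM and the LOC550643 siRNA libraries 122.9, 118.7 and 119.9 CPM. The groups were apart and the pool's libraries lay close together. The gene was 0.25 higher on the log2 scale (SE 0.078, limma adjusted p = 0.0287). The call was lost when control replicate 1 or 2 was left out (0.0801 and 0.0947), and without any 1 of the LOC550643 siRNA libraries (0.0798, 0.0673 and 0.0669 for replicates 1 to 3). It was also lost with upper-quartile scaling (0.0547) and library totals (0.0997), and the range over settings was 0.0149 to 0.0997.

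SLC30A1 (ZnT1), the exporter of the plasma membrane and a known MTF1 target, did not pass. Its control libraries stood at 10.9, 11.3 and 10.3 CPM and those of the pool at 11.97, 13.1 and 12.8 CPM. These do not overlap, but the log2 fold change of 0.22 (SE 0.095) had a limma adjusted p of 0.0919. SLC30A3, a vesicular transporter known from synaptic vesicles, was at log2 -0.04 (adjusted p = 0.709) with 27.4 and 26.6 CPM. SLC30A10, an exporter known for manganese, was at -0.24 (0.235) from 3.24 CPM. SLC30A8, the transporter of insulin granules, was near the limit of detection at 0.405 and 0.303 CPM (-0.34, 0.475). SLC30A2 had 13 read ends in all libraries together and was not tested.

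**Figure D3:**
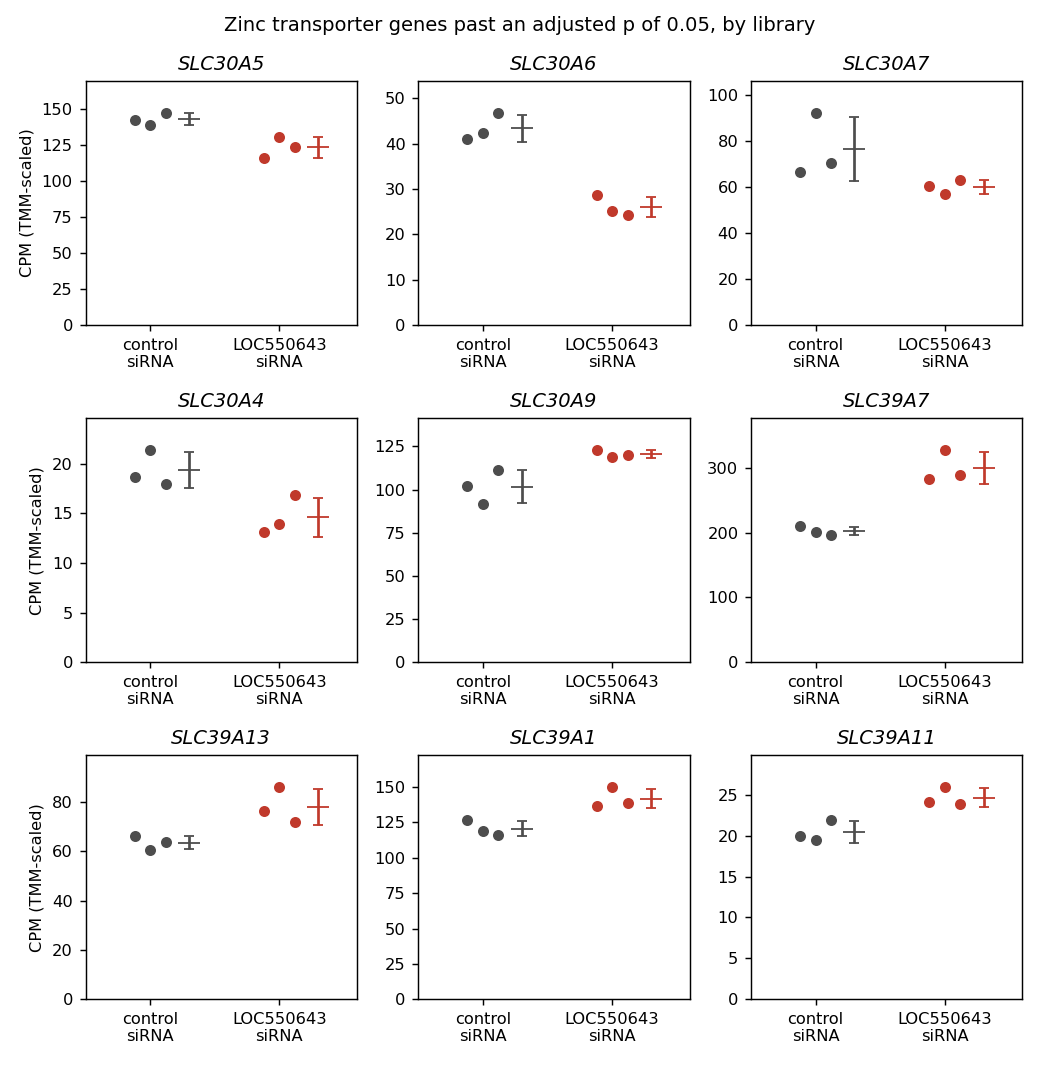
CPM by library (y axis, from 0) of the 9 transporters past an adjusted p of 0.05, with 3 control siRNA libraries in grey and 3 LOC550643 siRNA libraries in red; the bar to the right of each group is the mean ± SD. In all 9 panels the groups do not overlap, and the gap is widest for SLC30A6 and SLC39A7.

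The ZIP that releases zinc from the endoplasmic reticulum was the member with the largest rise. SLC39A7 (ZIP7, chromosome 6, 33168603 to 33172214, plus strand) stood at 209.8, 200.4 and 197.1 CPM in control libraries. With the pool it stood at 282.1, 327.6 and 289.3 CPM. The lowest library of the pool was above the highest control, with means of 202.4 ± 6.62 and 299.7 ± 24.5 CPM (SD, n = 3 each). It was 0.56 higher on the log2 scale (SE 0.076, limma adjusted p = 0.000232), and no alternative setting gave an adjusted p above 0.00188. In the authors' deposited table it stands at 0.56 (adjusted p = 4.57e-08). The row has 6 genome positions, so its reads may have been shared among copies. In GENCODE, 9.02% of the exon bases of SLC39A7 overlap the protein-coding gene RXRB on the opposite strand, and the counting had no strand option. SLC39A7 also had the highest level per length of all members, at 82.8 CPM per kb in control and 122.6 CPM per kb in LOC550643 siRNA libraries.

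SLC39A13 (ZIP13), which releases zinc from vesicles and the Golgi, rose too (chromosome 11, 47430046 to 47438051). Control libraries stood at 66.0, 60.5 and 63.8 CPM and those of the pool at 76.2, 85.9 and 71.8 CPM. LOC550643 siRNA replicate 2 was the highest, and the groups did not overlap. On the log2 scale this was 0.29 (SE 0.080, limma adjusted p = 0.0145). Without LOC550643 siRNA replicate 2 it was 0.22 and did not pass (0.069), and the range over settings was 0.00329 to 0.069.

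SLC39A1 (ZIP1), a widely expressed importer of the plasma membrane, stood at 126.5, 119.2 and 116.0 CPM in control and at 136.9, 149.9 and 138.8 CPM in LOC550643 siRNA libraries (chromosome 1, 153931575 to 153940208). The pool's libraries were all higher. This was a rise of 0.23 on the log2 scale (SE 0.069, limma adjusted p = 0.0213). It did not pass without control replicate 3 (0.0763), without LOC550643 siRNA replicate 2 (0.0931) or with library totals alone (0.08), over a range of 0.00945 to 0.0931. Of its windows of 75 bases, 1989 of 3773 (52.7%) also occur in transcripts of another GENCODE gene model, so reads may be shared there. Its GENCODE exons also overlap the protein-coding gene CREB3L4 on the opposite strand, and the counting had no strand option.

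SLC39A11 (ZIP11), an intracellular member that forms a branch of its own in the family, stood at 19.98, 19.4 and 21.9 CPM in control and 24.1, 25.9 and 23.8 CPM in LOC550643 siRNA libraries (chromosome 17, 70642085 to 71088853). These groups did not overlap either. The rise was 0.27 on the log2 scale (SE 0.084, limma adjusted p = 0.0277). It was lost without control replicate 1 or 2 (0.0931 and 0.076), without LOC550643 siRNA replicate 2 (0.103) and with library totals (0.0834), over a range of 0.0184 to 0.103. In the authors' deposited table the adjusted p of SLC39A11 is 0.0661, that of SLC39A1 0.0504 and that of SLC30A9 0.0654, so none of these 3 is under 0.05 there.

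The other SLC39A genes did not pass, although several were among the more abundant members. SLC39A6 (ZIP6), an importer of the plasma membrane, had a log2 fold change of 0.17 (SE 0.071, limma adjusted p = 0.0875) with means of 130.3 and 146.6 CPM. Its partner SLC39A10 (ZIP10) was at -0.02 (0.837) with 118.9 and 116.8 CPM. SLC39A9, a transporter of the trans-Golgi network, was at 0.14 (0.129). SLC39A14 and SLC39A8, importers that also carry manganese and iron or cadmium, were at -0.01 (0.904) and 0.01 (0.917). Mean levels of SLC39A14 were 144 and 142.8 CPM. SLC39A3 was at -0.09 (0.383).

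SLC39A4, the importer of dietary zinc in the gut, was at log2 -0.27 (SE 0.103, limma adjusted p = 0.0659). Its groups did not overlap, at 22.5, 18.5 and 17.9 CPM in control and 17.2, 15.9 and 15.6 CPM in LOC550643 siRNA libraries. It passed without control replicate 2 (0.0475) and with library totals (0.0248), within a range of 0.0248 to 0.272. SLC39A5 reached at most 1.31 CPM in a library, and was at 0.0023 on the log2 scale (limma adjusted p = 0.997), and its row overlaps ANKRD52 on the opposite strand. SLC39A2 reached 0.352 CPM in 1 control library and was not tested. SLC39A12 was listed at 0 in all 6 libraries.

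Compared per kb of transcript, which allows genes of different length to be set side by side, the transporters covered a wide range. In the control libraries SLC39A7 (82.8 ± 2.71 CPM per kb) and SLC39A1 (49.2 ± 2.20) led the ZIP genes, followed by SLC39A6 (36.1 ± 1.37) and SLC39A3 (35.1 ± 2.49). On the lengths the authors list, the levels of SLC39A6 and SLC39A3 did not differ beyond their spread. SLC39A10, SLC39A9 and SLC39A8 lay together at 22.4, 21.7 and 21.6 CPM per kb. Among ZnT genes SLC30A5 (35.3 ± 1.04) and SLC30A9 (31.4 ± 3.03) were highest and their ranges touched. With the pool and the lengths the authors list, they lay apart in the reverse order, at 30.5 ± 1.80 and 37.2 ± 0.682 CPM per kb. SLC30A7 (9.31 ± 1.68) and SLC30A6 (8.76 ± 0.609) could not be ordered in control. With the pool SLC30A7 (7.32 ± 0.356) was above SLC30A6 (5.26 ± 0.448). The median gene tested stood at 8.93 CPM per kb in control. These levels use the transcript length the authors list for each row, which for SLC30A1 is 2014 bases, while its GENCODE exons cover 5893. For SLC30A5 and SLC30A9 the listed 4042 and 3241 bases stand beside 5439 and 7199 in GENCODE. For SLC39A6 and SLC39A3 the listed 3608 and 1420 bases stand beside 3683 and 4428. The order of genes above depends on the lengths used, which the SDs do not cover.

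**Figure D4:**
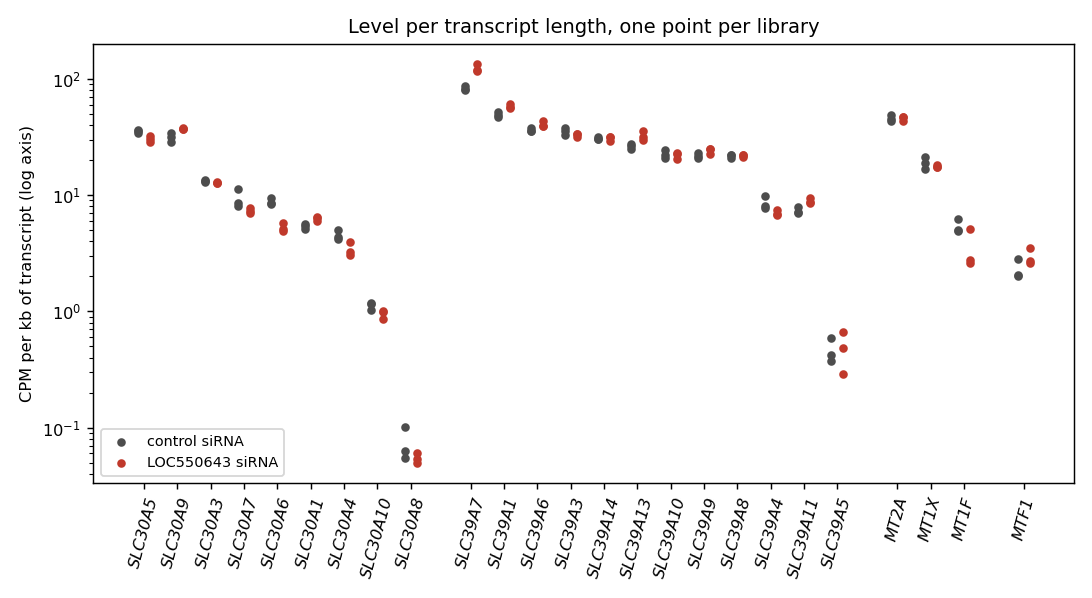
CPM per kb of transcript (y axis, log scale) of the 25 members tested, 1 point per library, control siRNA in grey and LOC550643 siRNA in red, ordered within each family by the control mean. SLC39A7 is highest in both groups, and the points of SLC30A6 and SLC39A7 separate by group.

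Metallothionein mRNA came from 3 of the 11 genes. MT2A, the main form in most human cells, stood at 20.4, 17.8 and 18.7 CPM in control libraries and at 18.1, 19.4 and 19.4 CPM with the pool. All 3 libraries of the pool lay within the control range, with means of 19.0 ± 1.29 and 18.9 ± 0.765 CPM (SD, n = 3 each). Its log2 fold change was below 0.01 in size (SE 0.087, limma adjusted p = 0.994). MT1X stood at 8.41, 6.62 and 7.57 CPM in control and at 6.93, 6.89 and 7.25 CPM in LOC550643 siRNA libraries. These overlapped as well (log2 -0.09, SE 0.119, limma adjusted p = 0.569). Per kb of transcript MT2A was at 45.8 and MT1X at 18.9 CPM per kb in control.

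Of the 3 metallothioneins tested, MT1F had the lowest level and the widest difference. It stood at 3.01, 2.40 and 2.36 CPM in control libraries and at 1.33, 2.43 and 1.25 CPM with the pool. LOC550643 siRNA replicate 2 lay within the control range, and the other 2 libraries of the pool lay below it. The difference was -0.68 on the log2 scale (SE 0.247) and did not pass (limma adjusted p = 0.0521). Without LOC550643 siRNA replicate 2 it was -0.97 and passed (0.00717). It also passed with upper-quartile scaling (0.0445), library totals (0.0357) and a pseudocount of 10 (0.0484), over a range of 0.00717 to 0.173. Its entry in the authors' deposited table is -0.55 (adjusted p = 0.0691).

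The other 8 metallothioneins were not detected above the counting limit. MT1B, MT1E, MT1G, MT1H, MT1M, MT3 and MT4 were listed at 0 in all 6 libraries, and MT1A had 2 read ends in all. A count of 0 allows up to 3 read pairs, which is 0.0812 to 0.357 CPM depending on the library. MT1B and MT1H, which carry 3 and 8 metal response element matches upstream, were among the genes at 0, while MT2A and MT1X with 7 and 4 were detected. Of their distinct windows of 75 bases, few recurred in transcripts of another gene. The shares were 0% for MT1A, MT3 and MT4, 0.229% for MT1M and 1.42% for MT1E. They were 5.72% for MT1G, 7.34% for MT1H and 12% for MT1B. Whether reads from such shared stretches were discarded or placed elsewhere was not tested.

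MTF1 (chromosome 1, 38275239 to 38325292, minus strand) did not pass. Its control libraries held 16.1, 22.3 and 16.4 CPM and the LOC550643 siRNA libraries 20.9, 21.5 and 28.1 CPM. Control replicate 2 lay within the range of the pool, so the groups overlapped. On the log2 scale MTF1 was at 0.37 (SE 0.144, limma adjusted p = 0.0681). Without control replicate 2 it was 0.51 and passed (0.00833), and it passed with DESeq2 (0.0345), over a range of 0.00833 to 0.244. Of the target genes described above, SLC30A1 was at 0.22, MT2A near 0, MT1X at -0.09 and MT1F at -0.68, and none of the 4 passed.

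Zinc enzymes were measured beside the transporters, in a list of mostly secretory pathway enzymes and a list of mostly cytosolic ones. Each list holds 1 gene whose location does not match its name. These are the cytosolic LTA4H (log2 0.13) in the first and the membrane-anchored DPEP1 (log2 -0.20) in the second, and neither passed. Every count of called genes here and in the lists that follow stands beside 17.5% higher, 18.2% lower and 35.7% in either direction over all genes tested. Of 16 genes in the first list, 13 were tested, and 1 was higher and 5 lower (limma adjusted p under 0.05), with a median log2 fold change of -0.13 beside -0.02 over all genes tested. ALPL, the alkaline phosphatase of bone and liver, fell from 11.95 ± 1.08 to 8.01 ± 1.33 CPM (SD, n = 3 each; log2 -0.58, limma adjusted p = 0.00607). The ectonucleotidase ENPP1 fell from 72.2 ± 5.05 to 50.5 ± 3.31 CPM (-0.52, adjusted p = 0.000542) and ENPP4 from 48.9 ± 1.46 to 34.8 ± 2.14 CPM (-0.49, adjusted p = 0.0005). ENPP2 and ENPP3 were the other members that fell (-0.47 and -0.53), and ENPP5 rose (0.36). The call of ENPP3 was lost without control replicate 1 or 3 or without LOC550643 siRNA replicate 2 (0.0582, 0.0595 and 0.0567). Of 12 genes in the second list 0 rose and 3 fell (35.7% called over all genes tested). ADH5, a dehydrogenase that clears formaldehyde, fell from 124.7 ± 15.5 to 66.3 ± 1.89 CPM (-0.90, limma adjusted p = 3.49e-05). The carbonic anhydrases CA13 and CA2 fell by 0.57 and 0.26 on the log2 scale. CA2 (adjusted p = 0.022) did not pass without control replicate 1 (0.0672), control replicate 3 (0.0935), LOC550643 siRNA replicate 2 (0.0759) or LOC550643 siRNA replicate 3 (0.0591).

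Other genes of zinc handling and of the response to metals gave a mixed picture. Of 9 further zinc genes, beside 35.7% of all genes called, 0 rose and 1 fell, the zinc-sensing receptor GPR39 (log2 -0.47, limma adjusted p = 0.00372). CBWD1, a member of a family of zinc chaperones with near-identical copies, was at 0.22 (0.0706) and the lysosomal channel MCOLN1 at -0.18 (0.0924). MCOLN1 passed with library totals alone (0.0222). Of 10 tested genes that respond to metals or oxidants 2 rose and 4 fell, beside 17.5% higher and 18.2% lower over all genes. HMOX1, the haem oxygenase, fell from 38.2 ± 0.755 to 27.3 ± 1.38 CPM (-0.49, limma adjusted p = 0.000533). GCLC and GCLM, the subunits that make glutathione's precursor, were lower by the test (-0.37 and -0.41), as was the chaperone DNAJB1 (-0.27). TXNRD1, a thioredoxin reductase, rose by log2 0.49 and the heat shock gene HSPA1B by 0.67. HSPA1B has a near-identical neighbour, HSPA1A, and 5 listed positions, so its reads are uncertain.

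Copper and iron genes were set beside the zinc genes as other metal systems. Of 15 copper genes 4 rose and 3 fell, beside 17.5% higher and 18.2% lower over all genes tested. The copper pump ATP7A fell from 41.5 ± 6.47 to 25.3 ± 3.32 CPM (log2 -0.71, limma adjusted p = 0.00102), and the metalloreductases STEAP2 and STEAP3 were lower by the test (-0.63 and -0.26). COX17, SCO1, COX19 and COX11, which bring copper to cytochrome oxidase, rose (0.54, 0.32, 0.25 and 0.22). COX19 did not pass with library totals (0.103), without control replicate 1 (0.132) or without LOC550643 siRNA replicate 1 or 2 (0.081 and 0.0845). COX11 did not pass in 5 of the 6 fits without 1 library, all but that without control replicate 3, and had an adjusted p of 0.149 with library totals. Of 15 iron genes tested 6 rose and 2 fell, beside the same shares of all genes. FTH1, the ferritin heavy chain, rose from 358.9 ± 30.1 to 487.0 ± 38.8 CPM (0.44, limma adjusted p = 0.00249). NCOA4, the receptor that takes ferritin to lysosomes, fell by 0.33, and TFRC, the transferrin receptor, fell by 0.24 on the log2 scale. TFRC did not pass without control replicate 2 (0.0575) or without LOC550643 siRNA replicate 2 or 3 (0.0797 and 0.0549). BMP6, an inducer of hepcidin, rose by 0.28 (adjusted p = 0.0127) but not without LOC550643 siRNA replicate 2 (0.0618). The other iron genes higher were ACO1, FBXL5, PCBP1 and PCBP2 (0.28, 0.25, 0.19 and 0.29). Each of these 4 lost its call without at least 1 library: ACO1 and FBXL5 without control replicate 1 (0.0561 and 0.0554) and PCBP2 without LOC550643 siRNA replicate 1 (0.0602). FBXL5 also did not pass with library totals (0.0515). PCBP1 did not pass without control replicates 1 to 3 (0.0943, 0.0779 and 0.0863) or LOC550643 siRNA replicates 2 and 3 (0.149 and 0.118), each left out alone. It also failed with upper-quartile scaling (0.0855), library totals (0.167) and no filter (0.0677). Median log2 fold changes were -0.02 for the copper list and 0.01 for the iron list.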

How the data were processed

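Poly-A RNA from 6 samples of HEK293T cells, 3 per siRNA, was sequenced on both ends for 75 bases, per the labels' protocols, with libraries that mark strand. Reads were aligned to hg19 with STAR 2.4.0 and compared with edgeR, per the submitters' processing notes, and counted over exons with HOMER without a strand option, per the file headers. The deposited per-library values are a signal: coverage per gene as read counts that the authors brought to a common total per library of 29401170 to 29401184. All values (100% within 0.1 step) were whole multiples of 1 step per library. A step was read as 1 read end, because 59.2% to 61.0% of values up to 40 steps were even. Of the authors' deposited table, log2 fold changes and each p-value serve only to stand beside those computed here. The deposited lengths and numbers of genome positions describe each row.

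Here genes were kept by edgeR's filter (minimum 10 read pairs), leaving 16245, and values were divided by TMM factors from the recovered reads. The test was limma 3.58.1 (two-sided, with a mean trend) after adding a pseudocount of 1 deposited unit (0.034 CPM) and taking log2, with Benjamini-Hochberg adjustment over all genes, and fold changes on this scale understate those of low genes. Count tests on the recovered reads (edgeR 4.0.16, DESeq2 1.42.0) were alternatives; edgeR's quasi-likelihood test called 2859 genes higher and 2992 lower. R 4.3.3 and Python 3.11.15 were used, and the fit was tested on simulated data. No source says that replicates came from separate cultures beyond being separate samples, so a p-value reflects only how these samples vary, which can be technical variation. No columns were identical. The limit for a count of 0 covers counting error only, while SDs and SEs reflect how these libraries vary. Members called are given with all values, other members with level and fold change, and up to 3 genes with the smallest p from each of 6 pathway lists, with further genes of those lists named because they passed, chosen after their values were seen. The members and lists were chosen with earlier results of these data known. Promoter sequences are RefSeq's (GRCh38.p14).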

Additional observations from a re-analysis of the deposited data

How the results depend on the processing

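The 18 alternatives were other scalings, filters, pseudocounts, tests, a replicate block, leaving out each library and an adjusted p of 0.01. Over all genes, 2837 were higher and 2956 lower. At an adjusted p of 0.01 these were 1770 and 1751, and among the members 1 higher (SLC39A7) and 1 lower (SLC30A6). With library totals alone 2 members were higher. Without 1 library, members higher ranged from 1 to 4 and members lower from 1 to 4, lowest without LOC550643 siRNA replicate 2 and replicate 1, and SLC30A6 and SLC39A7 passed in all 6 such fits. With the replicate number as a block 4 members were higher and 4 lower, and 2671 and 2718 genes in all. SLC39A11 alone among the members lost its call (0.27, adjusted p = 0.0513). Same-numbered libraries did not deviate together (r = 0.0584, -0.283 and -0.12), and the main test does not pair them. Deviations within groups of 3 libraries cannot show whether same-numbered libraries were handled together.

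Signs turned only for members that passed in no setting. Without 1 library, SLC39A10 ranged from -0.077 to 0.036, SLC39A14 from -0.033 to 0.027, SLC39A8 from -0.025 to 0.028, MT2A from -0.055 to 0.051 and SLC39A5 from -0.261 to 0.312. SLC39A8 was at -0.018 with upper-quartile scaling and -0.065 with library totals. MT2A was at 0.0053 with median-of-ratios scaling and 0.00046 with DESeq2. SLC39A5 was at -0.026, -0.0704, -0.0498, -0.00895 and -0.098 with upper-quartile scaling, library totals, edgeR, DESeq2 and voom. The cause was not tested. Among tested members, depth limits SLC30A8, SLC39A5 and MT1F most, with 128, 311 and 795 read ends over the 6 libraries. SLC39A2, SLC30A2 and MT1A, with 74, 13 and 2, could not be tested.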
